A study of Mus musculus with 6 samples.

Results

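The circadian clock genes examined here were 10 genes chosen by symbol, namely Clock, Arntl, Per1, Per2, Per3, Cry1, Cry2, Nr1d1, Nr1d2 and Dbp, and all 10 had a row among the 24346 gene symbols of each file. The series compared mouse embryos labelled miR-124a-1/2 DKO, double knockouts that lack both of these microRNA genes, with embryos labelled control, which carry the genotype miR-124a-1+/-, so that no wild type is included. Each group had 3 stranded mRNA libraries of brain RNA labelled embryonic day 17.5. The labels name no litter, strain, sex, batch or hour of collection, and they do not say what part of each locus was deleted. Values were FPKM (fragments counted per kilobase of a transcript and set against the mapped total of each library), a unit that can be compared between genes because it accounts for length.

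The mammalian clock is a loop of transcription and repression that runs in most cells and repeats about once a day. CLOCK and its partner BMAL1, the product of Arntl, bind E-box sequences and switch on the Per, Cry, Nr1d and Dbp genes. PER and CRY proteins then gather and shut that activity off, while the nuclear receptors encoded by Nr1d1 and Nr1d2 (REV-ERB alpha and beta) repress Arntl through ROR elements, and DBP acts on D-box sequences. In most mouse tissues, Arntl transcripts therefore peak at about the opposite time of day to those of Nr1d1, Dbp and the Per genes, and the retina holds such a clock of its own.

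Promoter windows from RefSeq (build GRCm38.p6), each running from 250 bases before to 50 bases after a transcription start, were at hand for 9 of the 10 genes, in 13 windows, with none for Per2. The E-box CACGTG was in 2 of the 13 windows, 1 each for Per1 and Cry1, and in 7.15% of all 32851 windows. The related E-prime box CACGTT was in 3 of the 13, those of Cry1, Cry2 and Nr1d1 (4.68% of all windows). The core of the ROR element, AGGTCA, was in 4 of the 13, in 1 window each of Clock, Arntl, Per1 and Nr1d2 (16.3%). The D-box TTATGCAA was in a Per1 window (0.743%), and its variant TTATGTAA occurred in the Per3 window (0.938%). No member's window held the cyclic AMP element TGACGTCA (1.79% of all windows), and the window of Dbp held none of these words. Both strands were searched, and no 2 of these words contain each other.

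The windows of 4 genes are printed because the results return to them: Arntl is the gene the other members are set against, Per1 varied most among the 10 between libraries, Cry1 carries the same E-box and varied little, and Ciart, a repressor of CLOCK and BMAL1 that is not among the 10, varied more than any of them. Capitals mark the words named above, and each sequence reads 5′ to 3′ on the strand of its gene. The Arntl window printed is its window 2 by position, chr7:113207261-113207560, plus strand, with the ROR core 31 bases after the start. Its window 1 held 0 of these words. That of Per1 is its window 1, chr11:69098699-69098998, plus strand. It has the E-box 166 bases, a ROR core on the opposite strand 137 bases and the D-box 24 bases before the start. Window 2 of Per1 held 0 of these words. That of Cry1 is chr10:85185005-85185304, minus strand, with the E-prime box on the opposite strand 79 bases and the E-box 60 bases before the start. That of Ciart is chr3:95882179-95882478, minus strand, with 3 E-boxes 116, 58 and 44 bases before the start.
Arntl: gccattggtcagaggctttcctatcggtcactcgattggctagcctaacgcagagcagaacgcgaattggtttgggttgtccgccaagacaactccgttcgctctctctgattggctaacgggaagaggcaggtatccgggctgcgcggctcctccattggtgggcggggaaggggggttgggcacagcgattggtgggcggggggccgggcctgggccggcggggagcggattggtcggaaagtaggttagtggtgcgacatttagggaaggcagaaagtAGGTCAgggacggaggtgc
Per1: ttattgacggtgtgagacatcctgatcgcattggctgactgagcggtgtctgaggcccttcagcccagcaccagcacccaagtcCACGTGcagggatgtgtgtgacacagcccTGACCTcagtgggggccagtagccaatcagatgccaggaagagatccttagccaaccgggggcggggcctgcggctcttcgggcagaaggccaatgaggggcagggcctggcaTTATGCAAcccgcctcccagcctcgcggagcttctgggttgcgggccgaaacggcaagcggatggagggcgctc
Cry1: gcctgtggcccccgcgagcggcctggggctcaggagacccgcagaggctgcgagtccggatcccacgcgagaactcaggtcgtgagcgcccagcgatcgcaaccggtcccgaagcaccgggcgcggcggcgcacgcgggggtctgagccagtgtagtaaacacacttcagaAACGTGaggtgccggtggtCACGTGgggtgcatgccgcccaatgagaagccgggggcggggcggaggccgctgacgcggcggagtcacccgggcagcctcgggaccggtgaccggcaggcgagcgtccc
Ciart: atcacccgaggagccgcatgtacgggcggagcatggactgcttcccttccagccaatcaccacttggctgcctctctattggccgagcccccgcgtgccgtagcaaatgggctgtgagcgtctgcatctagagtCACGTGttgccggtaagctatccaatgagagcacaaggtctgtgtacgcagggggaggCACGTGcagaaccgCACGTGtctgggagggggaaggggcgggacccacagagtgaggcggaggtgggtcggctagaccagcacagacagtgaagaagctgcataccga

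The tissue label was checked against markers first. Genes of photoreceptors were high in all 6 libraries: the 5 rod genes summed to 11990 to 13055 FPKM in the DKO libraries and 12578 to 13619 FPKM in the control libraries. The 4 cone genes summed to 281 to 314 FPKM in the DKO and 326 to 367 FPKM in the control libraries. Of 5 genes of embryonic cortical neurons, none was at 0, but they summed to only 8.23 to 8.82 FPKM in the DKO and 8.31 to 9.61 FPKM in the control libraries. These photoreceptor and cortical levels go against a label of embryonic brain, in both groups. A list of 5 progenitor genes was mixed and does not decide this. The proliferation gene Mki67 lay at 0.0765 to 0.262 FPKM, and the mean of Top2a was also under 1 FPKM. Pax6, in contrast, measured 92.5 to 113 FPKM, Eomes 3.72 to 5.91 FPKM and Hes5 2.36 to 3.73 FPKM. Avp and Prok2, peptides of the suprachiasmatic nucleus, the brain's master clock, were listed at 0 in all 6 libraries. Vip, another peptide of that nucleus, was present, with 6.20 to 10.2 FPKM. Of the 11 genes listed for the nucleus, 4 had a mean under 1 FPKM, Avp and Prok2 among them, so the list was not absent as a whole. Since Vipr2, Six6 and Lhx1 of this list are also retinal genes, it does not decide the tissue. The host transcript Mir124a-1hg had 510, 464 and 502 FPKM in the DKO libraries and 420, 528 and 492 FPKM in the control libraries. That of the second gene, listed as 2610100L16Rik, had 69.9, 98.0 and 97.8 FPKM in the DKO libraries, against 80.3, 110 and 115 FPKM in the control libraries. The groups overlapped for both, so these levels do not bear out the labelled genotypes, and since the deleted bases and the mature microRNAs were not measured here, the labels could not be checked. By the steps between low values, the other 5 libraries had 0.956 to 1.24 times the depth of DKO replicate 1. In bulk RNA of this kind, fewer cells of a type and less RNA per cell cannot be told apart.

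No clock gene was called different between the groups. Of the 10 members, 0 passed the threshold in limma after Benjamini-Hochberg adjustment over the 13215 tested rows, where 3 rows, or 0.0227%, passed. At an unadjusted p under 0.05 there were likewise 0 of 10, where 7.88% of all tested rows had one. The groups overlapped for every member, whereas 13.9% of all tested rows did not overlap. The log2 fold changes, DKO over control on log2(FPKM + 1), ran from -0.10 to 0.03 with a median of -0.05 (all tested rows, -0.0016), and 3 lay above and 7 below 0, where 49.5% of all rows lay above.

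**Figure D1:**
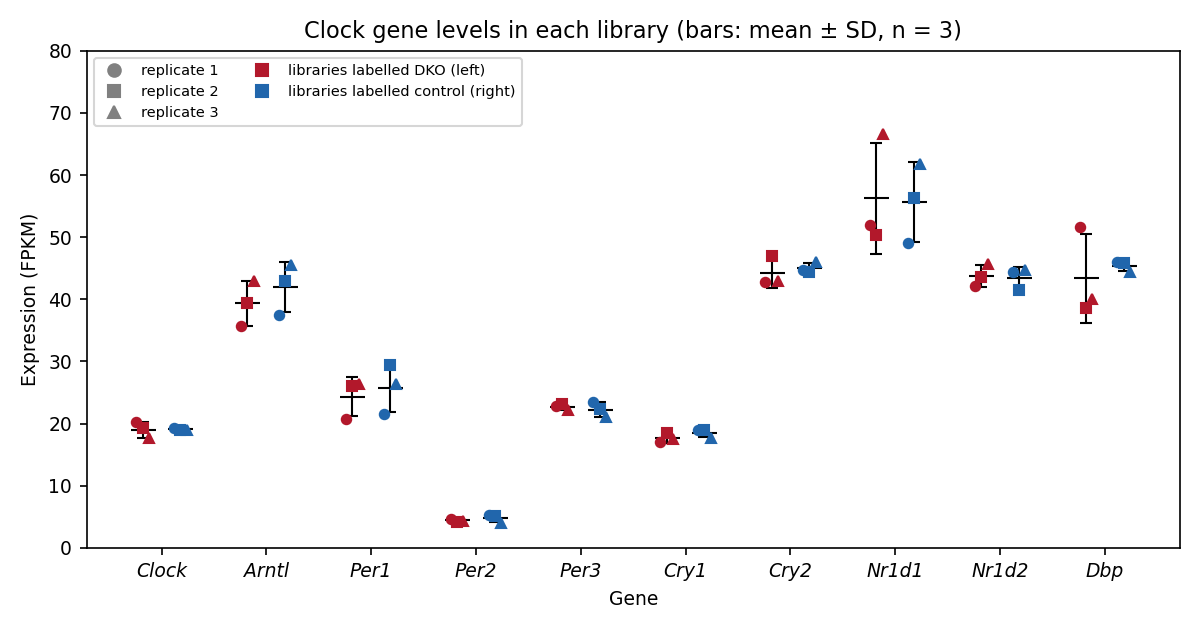
FPKM of the 10 clock genes in each library, DKO libraries left and control libraries right of each gene name; points are libraries, shapes give the replicate number, and bars are the mean ± SD of 3 libraries. The groups overlap for every gene, and Nr1d1 stands highest and Per2 lowest.

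In the activator arm, Clock (chromosome 5, 76209868 to 76304792, minus strand, all positions in GRCm38), the DNA-binding partner of BMAL1, had 20.2, 19.3 and 17.7 FPKM in the DKO libraries and 19.4, 18.9 and 19.0 FPKM in the control libraries. The DKO libraries thus hold both its highest and its lowest value. Its log2 fold change was -0.0057 with a standard error (SE) of 0.06. Arntl (chromosome 7, 113207465 to 113314126, plus strand) had 35.7, 39.4 and 43.0 FPKM in the DKO libraries, against 37.5, 43.0 and 45.5 FPKM in the control libraries. Replicate 1 was the lowest library of each group, and the ranges overlapped from 37.5 to 43.0 FPKM. The log2 fold change of Arntl, -0.09 with SE 0.09, did not pass (adjusted p = 0.845 by limma with Benjamini-Hochberg), and its 95% confidence interval ran from -0.30 to 0.11. It depended on single libraries, with -0.025 without DKO replicate 1, -0.033 without control replicate 3, -0.16 without DKO replicate 3 and -0.17 without control replicate 1.

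Arntl lies 1.05 Mb from Dkk3 and 1.10 Mb from Usp47, which are 2 of the 3 rows that passed the threshold. Dkk3, which encodes a secreted Dickkopf-related protein, had 416, 450 and 474 FPKM in the DKO libraries, against 228, 240 and 233 FPKM in the control libraries. Usp47, a deubiquitinating enzyme, had 58.8, 58.5 and 61.2 FPKM in the DKO libraries and 42.9, 41.7 and 43.1 FPKM in the control libraries. Both rose, while the values of Arntl overlapped between the groups. The call of Usp47 was lost in 8 of 15 alternatives, among them each library left out in turn (limma, Benjamini-Hochberg adjusted p 0.0579 to 0.197), and that of Dkk3 in 0.

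In the repressor arm, Per1 (chromosome 11, 69095217 to 69109960, plus strand), which is also an immediate early gene, had 20.7, 26.0 and 26.3 FPKM in the DKO libraries and 21.6, 29.4 and 26.4 FPKM in the control libraries. Its lowest library was replicate 1 in each group, and control replicate 2 was its highest. The log2 fold change was -0.08 with SE 0.13 (95% confidence interval from limma, -0.37 to 0.21), the widest interval of the 10 genes. Per2 (chromosome 1, 91415982 to 91459324, minus strand) was the lowest of the members, with 4.72, 4.19 and 4.38 FPKM in the DKO libraries, against 5.28, 5.18 and 4.05 FPKM in the control libraries. The control libraries held both its highest and its lowest value, and the log2 fold change was -0.10 with SE 0.11, or -0.20 without control replicate 3, -0.054 without control replicate 2 and -0.043 without control replicate 1. Per3 (chromosome 4, 151003652 to 151044665, minus strand), the paralog least needed for rhythms in knockout mice, had 22.8, 23.1 and 22.2 FPKM in the DKO libraries and 23.4, 22.3 and 21.0 FPKM in the control libraries, a log2 fold change of 0.03 with SE 0.06.

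The cryptochromes, which carry the repression of CLOCK and BMAL1, stayed within 1.11-fold (Cry1) and 1.10-fold (Cry2) from the lowest to the highest library. Cry1 (chromosome 10, 85131700 to 85185064, minus strand) had 17.1, 18.5 and 17.5 FPKM in the DKO libraries, against 18.9, 18.9 and 17.7 FPKM in the control libraries. The highest DKO value lay inside the control range, and limma put the log2 fold change at -0.06 (95% confidence interval -0.20 to 0.07). Cry2 (chromosome 2, 92403646 to 92434043, minus strand) had 42.8, 46.9 and 42.9 FPKM in the DKO libraries and 44.8, 44.3 and 46.0 FPKM in the control libraries. Its DKO libraries spanned the control range, and its log2 fold change was -0.03 with SE 0.05.

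The REV-ERB pair differed in steadiness. Nr1d1 (chromosome 11, 98767932 to 98775333, minus strand), the highest of the 10 genes, had 51.9, 50.3 and 66.5 FPKM in the DKO libraries and 49.0, 56.4 and 61.8 FPKM in the control libraries, with replicate 3 the highest of each group. Its log2 fold change was 0.0085 with SE 0.12. Nr1d2 (chromosome 14, 18204054 to 18239127, minus strand) had 42.1, 43.6 and 45.6 FPKM in the DKO libraries, against 44.4, 41.5 and 44.7 FPKM in the control libraries, a log2 fold change of 0.0092 with SE 0.05. From the lowest to the highest library, the FPKM of Nr1d1 spanned 1.36-fold and that of Nr1d2 1.10-fold. The 3′ end of Nr1d1 shares 263 exonic bases with Thra, a thyroid hormone receptor gene on the opposite strand, and whether the counting used strand is not given in the sources used here. Thra had 123, 124 and 126 FPKM in the DKO libraries and 115, 113 and 120 FPKM in the control libraries, and its part in the Nr1d1 values was not tested.

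Dbp (chromosome 7, 45705088 to 45710203, plus strand), the clock output factor of the PAR bZIP family, had 51.6, 38.6 and 40.0 FPKM in the DKO libraries and 45.9, 45.8 and 44.5 FPKM in the control libraries. DKO replicate 1 was the highest and the other 2 DKO libraries the lowest of the 6, so that the SD was 7.15 FPKM in the DKO group and 0.821 FPKM in the control group. The log2 fold change was -0.08 with SE 0.10. Dbp shares 539 exonic bases with Sphk2, a sphingosine kinase gene on the opposite strand. Sphk2 was also highest in DKO replicate 1, with 17.7, 15.1 and 15.0 FPKM in the DKO libraries and 16.2, 16.3 and 14.3 FPKM in the control libraries, and its part in the Dbp values was not tested. Cry2 and Arntl likewise share 295 and 33 exonic bases with antisense transcripts.

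**Figure D2:**
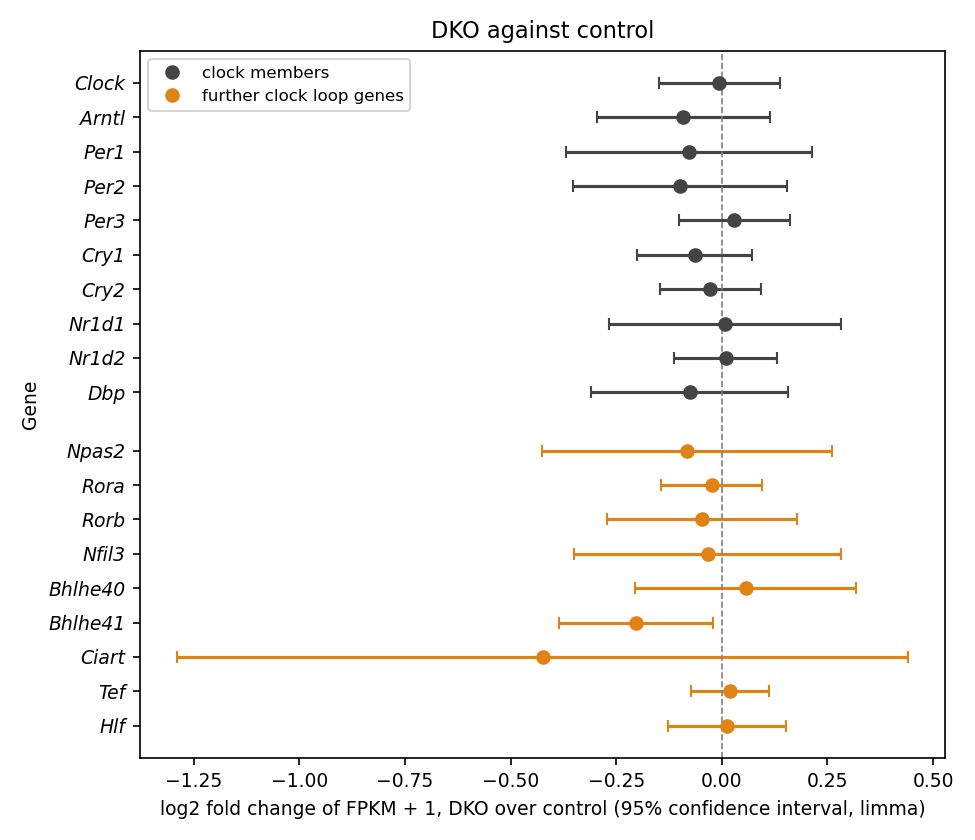
Log2 fold change of FPKM + 1, DKO over control, with the 95% confidence interval from limma, for the 10 clock genes (grey) and 9 further clock loop genes (orange). All intervals of the clock genes include 0, and Ciart has the widest interval, from -1.29 to 0.44.

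The order of levels placed the genes in steps. Averaged over the 6 libraries, Nr1d1 had 56.0 ± 6.98 FPKM (SD, n = 6), with all 6 libraries above those of Cry2, although its range overlapped that of Dbp. Cry2 (44.6 FPKM), Dbp (44.4 FPKM), Nr1d2 (43.6 FPKM) and Arntl (40.7 FPKM) followed with overlapping ranges, and Cry2 was above Dbp in 3 of 6 libraries, so the order among these 4 is not set beyond their spread. Per1 (25.1 FPKM) and Per3 (22.5 FPKM) overlapped with each other, with Per1 higher in 4 of 6 libraries, and stood apart from Arntl above and Clock below. Clock (19.1 FPKM) was above Cry1 (18.1 FPKM) in 5 of 6 libraries, with overlapping ranges. Per2, at 4.63 ± 0.516 FPKM (SD, n = 6), was below all others in every library.

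How much the libraries differed in their clock transcripts depended on the gene. The SD of log2(FPKM + 1) over the 6 libraries had a median of 0.10 over the 10 members, against 0.11 over all tested rows. The members fell on 2 sides of the 6946 rows with a mean between 10 and 100 FPKM, whose median was 0.09. Per1 varied as much as or more than 93.7% of those rows, Nr1d1 than 91.9%, Dbp than 86.7% and Arntl than 80.7%. Cry2, Nr1d2, Per3, Clock and Cry1 did so for only 14.1% to 22.7%, and Per2, whose mean was under that range, for 65.0% of all tested rows. The 4 variable members are genes whose transcripts are known to cycle strongly in mouse tissues, and Clock transcripts are known to cycle weakly. However, Nr1d2 and Per3, which also cycle in many tissues, were among the steady ones. The part of cycling in these spreads was not tested.

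**Figure D3:**
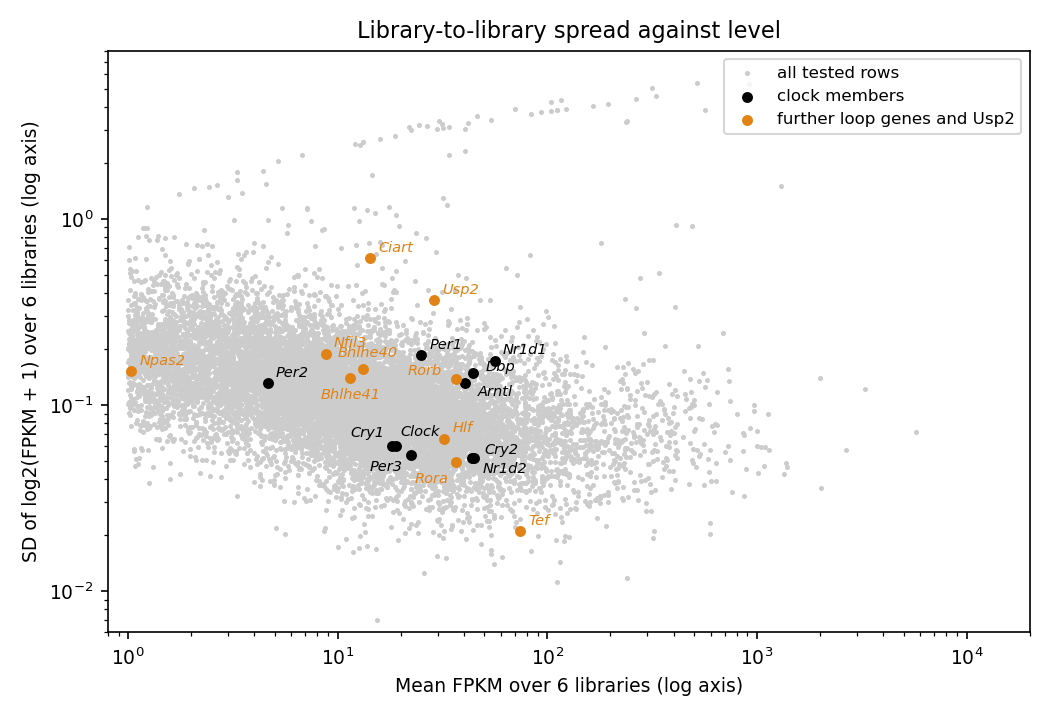
SD of log2(FPKM + 1) over the 6 libraries against mean FPKM (both axes logarithmic) for all 13215 tested rows (grey), the 10 clock genes (black) and further loop genes with Usp2 (orange). Ciart and Usp2 lie near the top for their level, Tef near the bottom, and the clock genes fall into a higher and a lower set.

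Ratios between genes of the loop compare the libraries without regard to a common rise of all clock genes. All but that of Dbp to Cry1 were taken to Arntl. The log2 ratio of Dbp to Arntl (each FPKM + 1) was 0.52, -0.03 and -0.10 in the DKO libraries and 0.28, 0.09 and -0.03 in the control libraries. It was highest in replicate 1 of each group, and its whole range of 0.62 equals 1.54-fold. That of Nr1d1 to Arntl was 0.53, 0.35 and 0.62 in the DKO libraries, against 0.38, 0.38 and 0.43 in the control libraries, a range of 1.21-fold. Over the 6 libraries the ratios to Arntl spanned 1.18-fold for Per1, 1.22-fold for Nr1d2 and 1.37-fold for Per3, and the ratio of Dbp to Cry1 spanned 1.44-fold. The log2 ratio of Per2 to Arntl had a range of 0.59, nearly that of Dbp. The groups overlapped in all 7 ratios, and the difference of group means, DKO minus control, was -0.01 to 0.12 on the log2 scale. With no hour of collection and no time series, a ratio shows how alike the libraries were and does not give the hour.

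The relations of Arntl to the other members across the 6 libraries had both signs, and the signs of 3 of the 9 depended on which libraries were included. Of the 9 relations, 5 were positive and 4 negative with all 6 libraries, against 2 positive and 7 negative without the 2 libraries farthest from the median of Arntl, and 0 passed after Benjamini-Hochberg adjustment over the 9 (2 had an unadjusted exact permutation p under 0.05 by Pearson and 1 by Spearman). Per1 was the closest on the positive side, with Pearson r = 0.85 (2-sided exact permutation p = 0.0264, adjusted p = 0.163) and Spearman rho = 0.94 (exact permutation p = 0.0167, adjusted p = 0.15). Nr1d1 was also positive, with r = 0.79 (exact permutation p = 0.0681, adjusted p = 0.204) and rho = 0.66 (exact permutation p = 0.175, adjusted p = 0.394). On the negative side Per3 had r = -0.82 (exact permutation p = 0.0361, adjusted p = 0.163) and rho = -0.77 (exact permutation p = 0.103, adjusted p = 0.308). Clock had r = -0.70 and rho = -0.77, both with an exact permutation p = 0.103 (adjusted p = 0.231 and 0.308), and Dbp r = -0.44 and rho = -0.49 (exact permutation p = 0.375 and 0.356, adjusted p = 0.585 and 0.533). Without DKO replicate 1 and control replicate 3, the libraries farthest from the median of Arntl, r over the remaining 4 was 0.86 for Per1, 0.85 for Nr1d1, -0.99 for Per3, -0.74 for Clock and -0.12 for Dbp. Cry1, Cry2 and Nr1d2 had r of 0.07, 0.26 and 0.33 and Per2 -0.42 (exact permutation p 0.390 to 0.899, adjusted p 0.585 to 0.899), with rho of 0.14, 0.37, 0.26 and -0.49 (exact permutation p 0.356 to 0.803, adjusted p 0.533 to 0.803). Without the same 2 libraries r changed sign for Cry1 (-0.50), Cry2 (-0.59) and Nr1d2 (-0.20), and it was -0.17 for Per2. The size of r for Dbp, Per2, Cry1, Cry2 and Nr1d2, and the sign for the last 3 of these, thus rest on the 2 left out.

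**Figure D4:**
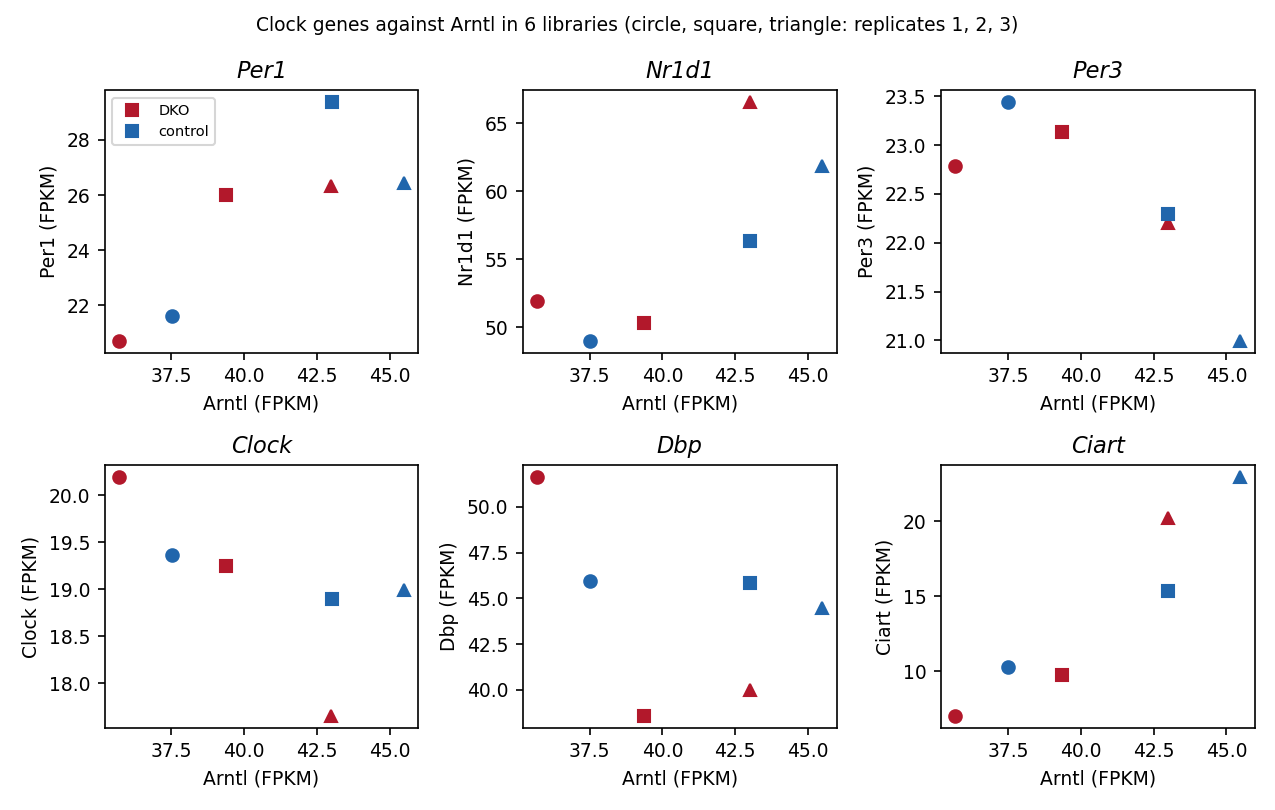
FPKM of Per1, Nr1d1, Per3, Clock, Dbp and Ciart against that of Arntl in the 6 libraries (red, DKO; blue, control; shapes give replicate numbers; axes do not start at 0). Per1, Nr1d1 and Ciart tend to be higher where Arntl is higher, and Per3 and Clock lower, with exceptions. Of the 9 relations of members to Arntl, 0 passed after adjustment, and that of Ciart was not tested.

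Further genes of the clock loop, 10 in a list made for this comparison, had 9 tested rows, of which 0 passed in limma. Among the 9, 3 were on the positive side and 6 on the negative (median log2 fold change -0.03). Arntl2, a paralog of Arntl, was under the filter at 0.342 to 0.598 FPKM, and Npas2, which can replace CLOCK, was near it at 0.723 to 1.32 FPKM. Among the ROR receptors, which oppose the REV-ERB proteins at the Arntl promoter, Rora measured 34.6 to 38.2 FPKM and Rorb 31.7 to 40.5 FPKM. The PAR bZIP relatives of Dbp were steady: Tef lay at 73.3 to 76.2 FPKM, a span of 1.04-fold that was narrower than in nearly all rows of its range, since only 0.403% varied as little or less, and Hlf at 29.7 to 33.5 FPKM. Nfil3, a repressor at the same D-boxes, lay at 7.35 to 10.3 FPKM. Bhlhe40, an E-box repressor, lay at 10.7 to 14.7 FPKM.

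Bhlhe41, the relative of Bhlhe40, was the 1 gene of this list whose groups did not overlap (13.9% of all tested rows). It had 9.75, 10.7 and 11.4 FPKM in the DKO libraries, against 11.5, 12.7 and 12.8 FPKM in the control libraries. The highest DKO library and the lowest control library were close together. The log2 fold change was -0.20 with SE 0.08, at an unadjusted p of 0.0330, and it did not pass (limma, Benjamini-Hochberg adjusted p = 0.598).

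Ciart varied most among all the clock genes examined. It had 7.01, 9.71 and 20.2 FPKM in the DKO libraries and 10.2, 15.3 and 22.9 FPKM in the control libraries, a span of 3.27-fold. In each group replicate 1 was the lowest and replicate 3 the highest library, as for Arntl, and the groups overlapped. Its SD of 0.62 on log2(FPKM + 1) was matched or passed by few of the 6946 rows between 10 and 100 FPKM, as 99.4% had the same or a smaller one. The log2 fold change of -0.42 had SE 0.37 (limma, Benjamini-Hochberg adjusted p = 0.823), and it was -0.82 without DKO replicate 3, -0.70 without control replicate 1, -0.33 without DKO replicate 2, -0.15 without control replicate 3 and -0.12 without DKO replicate 1, passing in none of these.

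Of 12 genes for the turnover and modification of clock proteins, all tested, 0 passed in limma and 6 lay above and 6 below 0 (median log2 fold change 0.00096). The members of smallest p were Gsk3b, a kinase that phosphorylates several clock proteins, with 37.6, 38.5 and 37.7 FPKM in the DKO libraries and 39.5, 40.5 and 40.9 FPKM in the control libraries, and Csnk1d, a kinase of PER proteins, with 51.7, 49.9 and 49.0 FPKM in the DKO libraries, against 50.4, 45.6 and 43.6 FPKM in the control libraries. Gsk3b did not overlap between the groups, and its log2 fold change of -0.09 did not pass (limma, Benjamini-Hochberg adjusted p = 0.696), nor did that of Csnk1d, 0.11 (adjusted p = 0.728). Csnk1a1, another casein kinase, also did not overlap, with at most 97.0 FPKM in the DKO and at least 98.0 FPKM in the control libraries, which makes 2 of 12 genes beside 13.9% of all tested rows. Usp2, a deubiquitinating enzyme that is itself a clock-controlled gene, is named after its values were seen. It had 18.1, 34.1 and 30.2 FPKM in the DKO libraries and 22.9, 36.1 and 30.6 FPKM in the control libraries, with replicate 1 the lowest and replicate 2 the highest of each group. Its SD of 0.37 on log2(FPKM + 1) was as large as or larger than that of 99.0% of the rows between 10 and 100 FPKM, and its log2 fold change was -0.14 with SE 0.24.

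**Figure D5:**
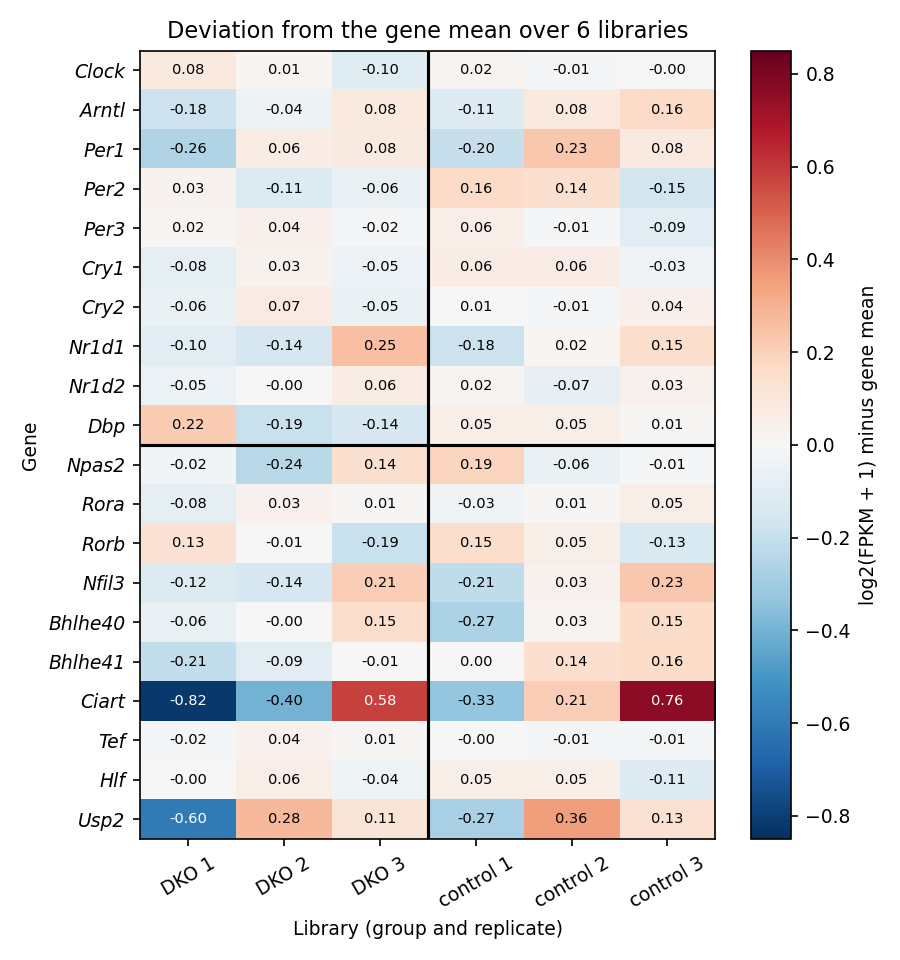
Deviation of log2(FPKM + 1) in each library from the gene's mean over 6 libraries, for the 10 clock genes (upper block) and further loop genes with Usp2 (lower block), DKO libraries left of the line. Ciart runs from -0.82 in DKO replicate 1 to 0.76 in control replicate 3, while Tef stays within 0.04 of its mean.

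Libraries with the same number were also compared between the groups. Of the members, Arntl and Per1 were lowest in replicate 1 of both groups and Arntl, Nr1d1 and Nr1d2 highest in replicate 3 of both groups, that is 2 and 3 of 10 genes. Among all tested rows the same held for 16.4% and 15.9%, the background beside which these counts stand. In the further loop list it was 4 and 4 of 9 genes, and in the turnover list 5 and 4 of 12. Each library had 4 to 7 of the 10 members above their mean, and the median deviation of a library was -0.05 to 0.03 on the log2 scale. The labels do not say that a number marks a shared litter, day or hour, and the part of such a factor was not tested.

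Genes of inputs and outputs of the clock gave 0 calls in limma. Drd4, the dopamine receptor whose transcript is known to follow the retinal clock, lay at 88.3 to 104 FPKM in the DKO libraries, against 113 to 129 FPKM in the control libraries. The groups did not overlap, as for 2 of the 4 tested genes of the retinal output list and 13.9% of all tested rows. The log2 fold change of Drd4 was -0.35 with SE 0.07 (unadjusted p = 0.00139), but it did not pass over all rows (limma, Benjamini-Hochberg adjusted p = 0.304). The 4 cone markers all had a log2 fold change below 0 too, with a median of -0.23 and 0 calls, as had the 5 rod markers, with -0.08, and their part in the Drd4 values was not tested. Adcy1, an adenylyl cyclase of photoreceptors, was the other gene without overlap, in the opposite direction. It lay at 68.8 to 69.3 FPKM in the DKO and 63.8 to 67.3 FPKM in the control libraries, a log2 fold change of 0.07. Aanat, the melatonin enzyme, lay at 0.204 to 0.604 FPKM, with Asmt and Mtnr1b listed at 0. In the list of the suprachiasmatic nucleus, whose genes Vipr2, Six6 and Lhx1 are also retinal genes, 7 of 11 rows were tested, and Lhx1 had 3.52, 3.93 and 3.99 FPKM in the DKO libraries and 4.45, 5.01 and 4.69 FPKM in the control libraries (log2 fold change -0.25, adjusted p = 0.584 by limma with Benjamini-Hochberg). Rgs16, a regulator of G protein signalling, had 0.13.

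Per1 is also switched on by neuronal activity and by glucocorticoids, so 2 lists of such genes were set beside it. Of the activity list the genes of smallest p were Sik1, a kinase that limits CREB signalling, and Junb, with log2 fold changes of 0.27 and -0.21, and of the glucocorticoid list Sgk1 and Klf9, with -0.29 and -0.08. None of these 4 passed (limma, Benjamini-Hochberg adjusted p 0.648 to 0.778). The activity list varied widely between libraries. It summed to 63.8 to 95.9 FPKM in the DKO and 48.2 to 111 FPKM in the control libraries. Its 6 tested genes had a median SD of 0.26 on log2(FPKM + 1), against 0.11 over all tested rows. Fos and Egr1 of that list were lowest in control replicate 2, with 8.76 and 9.37 FPKM, where Per1 was highest at 29.4 FPKM. In DKO replicate 1, where Per1 was lowest at 20.7 FPKM, they were the lowest of the DKO group, with 12.2 and 14.5 FPKM. The part of the inputs of the 2 lists in the Per1 values was not tested.

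The rows whose pattern over the 6 libraries was most like that of Dbp, by Pearson's r on log2(FPKM + 1) as a description, were Mrps12 (0.99), Ptpn1 (0.99), Ccdc127 (0.98), Mfsd12 (0.98) and Tmem119 (0.97). They shared its high value in DKO replicate 1 and low values in the other 2 DKO libraries, as Mrps12 shows with 35.8, 25.3 and 26.7 FPKM in the DKO and 32.5, 32.4 and 30.6 FPKM in the control libraries. With 6 libraries, 87 of 13214 rows had an r above 0.9. The closest clock genes were Clock, at r = 0.67 and place 987 in that order, and Per2, at 0.52 and place 1927. The other members stood at place 6356 or lower, with Nr1d2 last among them at place 11580 (r = -0.57).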

How the data were processed

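The 6 files hold 1 library each, with FPKM values that the authors deposited (per the file headers). Per the submitters' processing notes, the tools were Cuffdiff 2.2.1, Bowtie2 and TopHat2 2.1.1, with mm10 as build. Annotation, strand setting, filters and scaling across samples were not given in the sources used here. In the DKO files the value columns are headed CKO. FPKM holds no read totals, so precision rests on the spread of 3 libraries per group. The labels name brains but not whether they came from separate litters, so p-values measure the spread between these samples.

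The test ran on log2(FPKM + 1) over the 13215 of 24346 rows whose mean reached 1 FPKM, by limma version 3.58.1 under R version 4.3.3 (eBayes with a trend, Benjamini-Hochberg adjustment, threshold 0.05), a scale that understates changes of low genes. The script was tested on simulated data. Ratios and spreads were described without a test, and relations used exact permutation over 720 pairings. Members, lists and rules for named genes were chosen with earlier results of these data known: the 10 members and the further loop genes are named, except 1 loop gene that is not reported here and was left out of its list's counts, and of other lists the 2 genes of smallest p. Usp2, Csnk1a1, Fos, Egr1, overlapping genes and the marker genes given at 0 or by range were named outside that rule, after their values were seen. Positions come from GENCODE M21 (GRCm38, the assembly of mm10). Python 3.11.15, SciPy 1.17.1 and matplotlib 3.10.9 were used. Alternatives tried were a pseudocount of 0.1 or 0.5, a filter at a mean of 5 FPKM or none, median-of-ratios and quantile scaling, a replicate block, eBayes without a trend or robust, and each library left out.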

Additional observations from a re-analysis of the deposited data

How the results depend on the processing

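The count of clock members past the threshold was 0 in all 15 alternatives, as was that of the other clock genes, and the smallest adjusted p of a member was 0.455 (Dbp without DKO replicate 1, limma with Benjamini-Hochberg adjustment). A mean of at least 5 FPKM removed Per2. The count of all called rows was 3, against 1 with eBayes without a trend and 1 to 4 without single libraries, where leaving out control replicate 2 gave the 1; what causes this was not tested. The replicate block gave 2 rows and changed no member's call. With it, the SE fell from 0.089 to 0.042 for Arntl and from 0.126 to 0.054 for Per1. That of Clock moved only from 0.062 to 0.057 and that of Cry1 from 0.059 to 0.055. Over all tested rows, the deviations of libraries of equal number correlated at 0.0718, 0.00634 and 0.101, and those of unequal number at -0.119 to 0.0363. The main fit did not take the numbers as pairs. A correlation over all rows cannot decide whether libraries of equal number share a factor that acts on few genes. DKO replicate 2 correlated more with control replicate 1 (0.0363) than with its own number.

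Of 149 log2 fold changes of members in the alternatives, 10 changed sign, all when 1 library was left out. Without single libraries, Clock ranged from -0.047 to 0.045 (without DKO replicate 3; 0.0043 without control replicate 1), Per1 from -0.20 to 0.029 (without DKO replicate 1; 0.017 without control replicate 2) and Dbp from -0.20 to 0.0011 (without DKO replicate 2). Per3 ranged from -0.0093 (without control replicate 3) to 0.067, Nr1d1 from -0.12 (without DKO replicate 3; -0.08 without control replicate 1) to 0.085, and Nr1d2 from -0.024 (without control replicate 2; -0.021 without DKO replicate 3) to 0.037. Those of Cry1 (-0.097 to -0.041) and Cry2 (-0.070 to -0.0047) stayed below 0, as did those of Arntl and Per2. Usp2 ranged from -0.32 to 0.12, its value without DKO replicate 1, with 0.0018 without control replicate 2. The relation of Arntl and Cry2 turned to r = -0.019 with quantile normalization. The ratios between clock genes and the members' median spread moved by less than 1 SD throughout.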
